A study of Mus musculus with 12 samples.

Results

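Gas5, Snhg1, Snhg3, Snhg4, Snhg5, Snhg6, Snhg8 and Snhg12 are long non-coding RNAs whose introns carry small nucleolar RNAs (snoRNAs). These 8 genes were taken by symbol from a table of read counts with 24421 gene rows, and all 8 were among the 15281 genes with enough counts to be tested. The libraries were made from polyadenylated RNA of E14 mouse embryonic stem cells in 4 groups of 3 samples. WT FBS cells were wild type and grown on gelatin in serum with LIF, and WT paused cells were wild type and held for 2 weeks in the same medium with 200 nM INK128, an inhibitor of the growth kinase mTOR. KO FBS and KO paused cells carried a knockout of Mettl3, the catalytic subunit of the enzyme that writes N6-methyladenosine (m6A) on RNA, and were grown without and with the inhibitor in the same way. The labels name no clone and no targeted exon for the knockout, and they do not say that replicates were separate cultures, so p-values measure only the spread between these samples, which may be technical.

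A snoRNA host gene is transcribed as a long precursor. Splicing removes the introns, and the snoRNAs are trimmed out of them and packed with proteins into particles. Many of these particles direct 2'-O-methylation (box C/D snoRNAs) or pseudouridylation (box H/ACA snoRNAs) of ribosomal RNA. The joined exons leave as a polyadenylated RNA. In most of these hosts that spliced RNA holds only short reading frames. Ribosomes that engage them expose the RNA to nonsense-mediated decay, so the spliced host is known to accumulate when translation is blocked. Several hosts, Gas5 among them, start with a 5' terminal oligopyrimidine (TOP) tract, the C- and T-rich start that places the translation of ribosomal protein messages under mTOR. Gas5 itself, growth arrest-specific 5, was found as a transcript that accumulates in growth-arrested cells.

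Gene positions follow the GENCODE vM21 annotation of GRCm38 (mm10). Gas5 spans chr1:161034422-161038539 on the plus strand and holds 9 annotated snoRNA genes. Snhg1 (chr19:8723475-8726443, plus strand) holds 8, Snhg12 (chr4:132308623-132311024, plus strand) holds 4, and Snhg3 (chr4:132348014-132353686, minus strand) and Snhg5 (chr9:88521050-88522929, minus strand) hold 2 each. Snhg4 also holds 2, while Snhg6 (chr1:9941959-9944118, minus strand) and Snhg8 (chr3:123507552-123508404, minus strand) hold 1 each. These counts follow the annotated gene type and include Mir5117 in Gas5 and Mir1949 in Snhg4, which carry microRNA names. The snoRNAs of every host other than Snhg12 lie in introns of all spliced transcripts, whereas each of the 4 in Snhg12 is part of an exon in 2 to 4 of its 10 annotated transcripts.

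The starts of 6 of the hosts are shown because a TOP tract, where present, lies at the start of the RNA. Each line runs 5' to 3' from 50 bases before the annotated start site to 30 bases from it, taken from RefSeq promoters on GRCm38.p6, and capitals mark the longest run of C and T that touches the 20 bases on either side of the start.
Gas5: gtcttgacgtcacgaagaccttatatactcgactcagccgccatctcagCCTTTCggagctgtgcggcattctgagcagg
Snhg1: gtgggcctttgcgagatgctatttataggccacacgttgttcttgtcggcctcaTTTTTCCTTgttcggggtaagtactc
Snhg5: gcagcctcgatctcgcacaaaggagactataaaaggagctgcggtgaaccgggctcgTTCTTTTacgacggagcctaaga
Snhg8: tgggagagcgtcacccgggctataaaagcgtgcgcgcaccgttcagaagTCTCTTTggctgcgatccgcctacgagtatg
Snhg12: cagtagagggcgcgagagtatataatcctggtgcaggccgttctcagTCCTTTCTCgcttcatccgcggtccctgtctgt
Snhg3: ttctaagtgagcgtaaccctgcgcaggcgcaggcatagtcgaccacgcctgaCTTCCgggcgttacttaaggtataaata
The windows are chr1:161035116-161035195 (plus strand) for Gas5, chr19:8723437-8723516 (plus strand) for Snhg1, chr9:88522868-88522947 (minus strand) for Snhg5, chr3:123508307-123508386 (minus strand) for Snhg8, chr4:132308628-132308707 (plus strand) for Snhg12 and chr4:132353657-132353736 (minus strand) for Snhg3. A run of at least 6 pyrimidines was present in 5 of the 6 genes, from 6 bases in Gas5 to 9 in Snhg1 and Snhg12, and in 37.5% of all 32851 promoters in that table. The run in Snhg3 was 5 bases long. In Snhg1 and Snhg5 the run begins 4 and 7 bases downstream of the annotated start. A run found in this way need not be a TOP tract, and a link between these runs and the response to pausing was not tested. The same 5 genes carry the letters TATA on the sense strand between 40 and 15 bases before the start, against 5.9% of all promoters, a search added after the sequences had been read. Gas5 has another listed start at position 161034601 with no such run, near which 1 GENCODE transcript begins, whereas 10 begin within 10 bases of the start shown. The Snhg6 start was not analysed here.

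3 of the box C/D snoRNAs made from these introns that have a row of their own in the count table are shown with the C box (TGATGA) and the D box (CTGA) in capitals, the motifs that the methylation complex binds. Their sequences are from GENCODE vM21 transcripts. Snord47 lies in Gas5 at chr1:161038082-161038158, Snord87 in Snhg6 at chr1:9942463-9942549 and Snord99 in Snhg12 at chr4:132310691-132310764.
Snord47: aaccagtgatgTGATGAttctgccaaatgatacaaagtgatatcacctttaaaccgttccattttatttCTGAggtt
Snord87: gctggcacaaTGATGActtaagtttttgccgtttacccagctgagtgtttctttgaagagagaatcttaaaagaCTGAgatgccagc
Snord99: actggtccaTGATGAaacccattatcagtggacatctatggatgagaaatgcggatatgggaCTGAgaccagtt

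Gene totals ran from 10339130 to 39034079 counts per library, and ERCC spike-in totals from 163967 to 759168. Gene counts per ERCC count, a measure of RNA per cell because equal numbers of cells were lysed, came to 73.4 ± 1.15 (SD, n = 3) in WT FBS cells and 33.0 ± 4.19 after pausing. In the knockout they came to 68.5 ± 23.3 without and 38.3 ± 1.89 with pausing. Mettl3 stood at 33.7 ± 2.53 CPM (counts scaled to library size) in WT FBS and 27.3 ± 1.35 in KO FBS cells (log2 change -0.30 ± 0.09 SE, edgeR adjusted p = 0.0126). Per cell the Mettl3 difference was not called (-0.20 ± 0.32, edgeR adjusted p = 0.7). These values check the labels only weakly, since a whole-gene count can include a disrupted message. Whether the message was disrupted was not tested. The lines differ in more than Mettl3. Counts of 4 genes on the Y chromosome (Uty, Ddx3y, Kdm5d and Eif2s3y) ran from 593 to 3124 in KO libraries and from 0 to 7 in WT libraries, and in every comparison of genotypes this cannot be told apart from the knockout. The summed level of 6 embryonic stem cell markers was lower in every KO library than in every WT library. It was 2600 to 2990 CPM in WT FBS, 3020 to 3280 in WT paused, 1690 to 1980 in KO FBS and 1870 to 2040 in KO paused libraries. The summed level of 5 trophoblast markers was 48.2 to 70.7 CPM in KO FBS and at most 6.82 CPM elsewhere. Fibroblast markers (5) summed to 16 to 20.5 CPM in KO FBS and at most 9.16 CPM elsewhere. Of these, 3 were higher in KO FBS than in WT FBS, and Pdgfrb was lower (log2 -0.74, edgeR adjusted p = 0.0091). Extraembryonic endoderm markers (5) summed to 24.8 to 39.1 CPM in WT FBS and 11.9 to 21.7 CPM elsewhere. Dab2 made up most of that sum in KO FBS cells (16.5, 15.3 and 16.8 CPM). Against WT FBS, 3 of the 5 were lower there and Dab2 was not called (0.11, adjusted p = 0.663). Without WT FBS replicate 1 Dab2 was higher (0.41, adjusted p = 0.00427). Neural markers (4) summed to 112 to 155 CPM in WT paused and 27.9 to 69.0 CPM elsewhere. Sox1 made up most of the neural sum in WT paused cells (122, 142 and 106 CPM). Nes fell there against WT FBS (log2 -1.98, edgeR adjusted p = 0.000628), and Pax6 was not called (-0.05, adjusted p = 0.919). Krt18 made up most of the trophoblast sum in KO FBS cells (53.9, 34.7 and 34.4 CPM). Of 4 tested trophoblast markers, 3 were higher there than in WT FBS, and Cdx2 was not called (0.36, adjusted p = 0.46). No marker of these lists was at 0 in a whole group, and the part of other cell types in the results was not tested. WT FBS replicate 1 stood apart from replicates 2 and 3, so values from fits that leave it out are given beside the comparisons with WT FBS (Mettl3 then differed by -0.37, adjusted p = 0.000538).

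Levels are TMM-scaled CPM, which measure a gene against the typical gene of its library. Per kilobase of spliced transcript, Gas5 was the most abundant of the 8 in WT FBS cells, at 476 ± 28.4 CPM per kb (SD, n = 3). Snhg1 followed at 213 ± 60.5, Snhg5 at 85.1 ± 20.5, Snhg6 at 53.8 ± 16 and Snhg3 at 48.5 ± 18.3 CPM per kb. The lowest were Snhg8 at 37.6 ± 2.97, Snhg12 at 31.3 ± 3.70 and Snhg4 at 19.2 ± 7.26 CPM per kb. From Snhg5 to Snhg12, each gene differed from the next in that order by less than the sum of their SDs, and Gas5 and Snhg1 held the first 2 places in all 4 groups. The lengths are means over annotated transcripts without retained introns. Retained introns are annotated in 20 of 25 Gas5 and 14 of 18 Snhg1 transcripts, but in none of Snhg3, Snhg6 or Snhg12. Whether reads on them raised the values per kilobase was not tested.

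**Figure D1:**
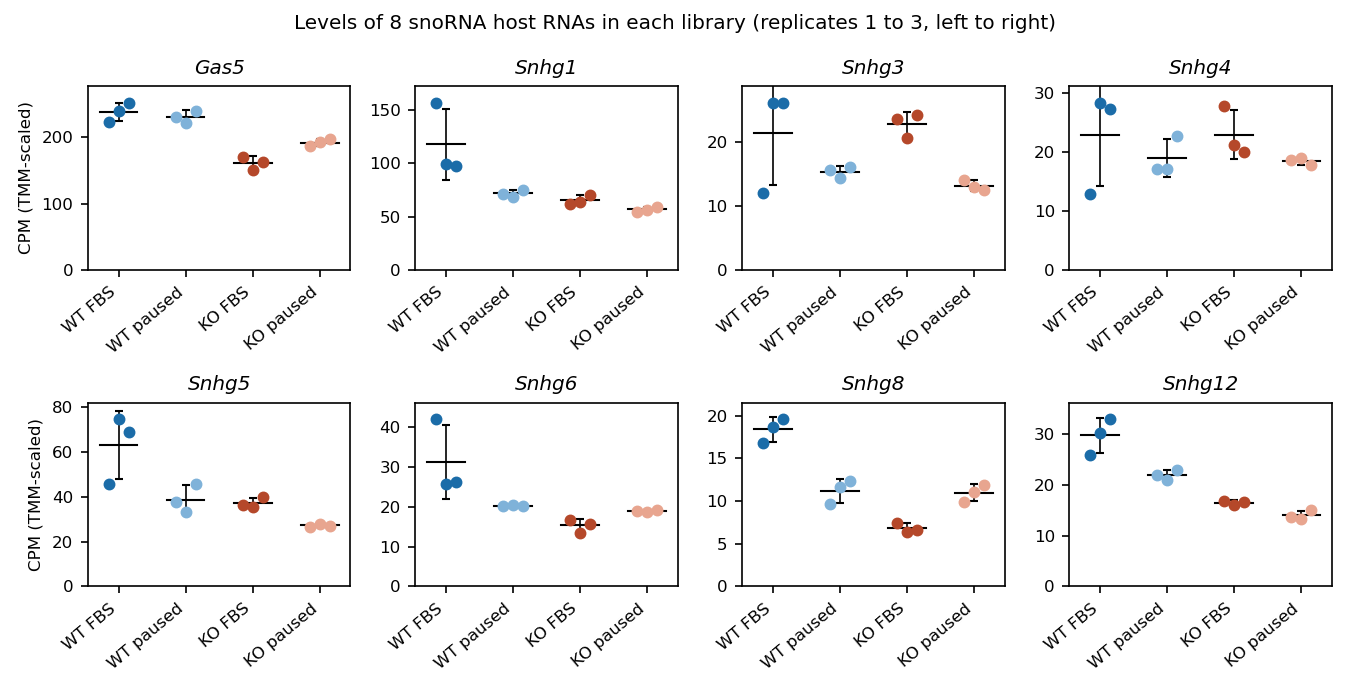
Level of each host RNA in every library, in TMM-scaled CPM on an axis from 0. Points are replicates 1 to 3 from left to right in each group, horizontal bars are means and error bars the SD (n = 3). WT FBS replicate 1 is the highest point for Snhg1 (157 CPM) and Snhg6 (42.0 CPM) and the lowest of its group for Snhg3, Snhg4 and Snhg5.

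When wild-type cells were paused, most of these hosts fell relative to the typical gene, while Gas5 did not pass the test. Gas5 measured 223, 239 and 252 CPM in WT FBS replicates 1 to 3 and 231, 221 and 240 CPM in WT paused cells. The groups overlapped, and the log2 change was -0.04 ± 0.08 (SE, adjusted p = 0.681). Of the 8 hosts 5 fell and none rose, where 20.1% of all tested genes were called lower, 18.5% higher and 38.7% in either direction. The median log2 change of the 8 was -0.55, and that of all tested genes was -0.01.

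Among the other box C/D hosts, Snhg1, which carries Snord22 and 7 further snoRNA genes, had 157, 99.3 and 97.7 CPM in WT FBS and 71.6, 68.9 and 75.2 CPM in WT paused cells. The paused libraries lay below all WT FBS libraries, and the log2 change was -0.71 ± 0.15 (adjusted p = 0.00358). Snhg5, the host of Snord50a and Snord50b, went from 45.9, 74.6 and 69.0 CPM to 37.6, 33.0 and 45.7 CPM. Its lowest WT FBS library was replicate 1, just above the highest paused library, and the log2 change was -0.71 ± 0.16 (adjusted p = 0.00504). Snhg6, the host of Snord87, measured 42.0, 25.6 and 26.2 CPM in WT FBS and 20.3, 20.4 and 20.3 CPM in WT paused cells. All paused libraries were lower than every WT FBS library, with a log2 change of -0.60 ± 0.17 (adjusted p = 0.0136). With only the WT groups in the fit Snhg6 was not called (-0.64, adjusted p = 0.0741), and with WT FBS replicate 1 left out its change was -0.38 (adjusted p = 0.00145).

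Of the box H/ACA hosts, Snhg8, which carries Snora24, had 16.8, 18.7 and 19.6 CPM in WT FBS and 9.71, 11.6 and 12.4 CPM in WT paused cells. The groups did not overlap and the log2 change was -0.71 ± 0.13 (adjusted p = 0.00122). Snhg3, the host of Snora73a and Snora73b, measured 12.1, 26.1 and 26.2 CPM against 15.7, 14.4 and 16.1 CPM. WT FBS replicate 1 lay below the paused libraries and replicates 2 and 3 above them. The log2 change of Snhg3 was -0.51 ± 0.22 (adjusted p = 0.087), and without that replicate it was -0.79 ± 0.10 (adjusted p = 7.72e-07). Snhg4 (chr18:35553371-35558316, plus strand), the host of Snora74a, showed the same arrangement, with 12.9, 28.3 and 27.2 CPM in WT FBS and 17.1, 17.1 and 22.6 CPM in WT paused cells. Its log2 change was -0.29 ± 0.24 (adjusted p = 0.367), or -0.56 ± 0.13 (adjusted p = 0.00137) without WT FBS replicate 1. Snhg12, which carries both kinds of snoRNA, measured 26.0, 30.3 and 33.0 CPM in WT FBS and 22, 21 and 22.9 CPM in WT paused cells. It fell by 0.44 on the log2 scale (SE 0.10, adjusted p = 0.00522). Set against the 50 nearest tested genes on chromosome 4, whose median was -0.37, its change was -0.17 (adjusted p = 0.18).

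Leaving out WT FBS replicate 1, 7 of the 8 hosts were lower in WT paused cells, where 31.3% of 15642 tested genes were called lower and 59.1% in either direction. Their log2 changes were then -0.49 for Snhg1, -0.91 for Snhg5, -0.38 for Snhg6, -0.78 for Snhg8 and -0.56 for Snhg12, beside those given for Snhg3 and Snhg4. Gas5 was the exception, at -0.12 ± 0.07 (adjusted p = 0.128).

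In Mettl3-knockout cells the hosts moved in both directions on pausing. Gas5 and Snhg8 rose, Snhg3 and Snhg5 fell, and the other 4 were not called. The background was 22.3% of tested genes called higher, 20.6% lower and 43.0% in either direction, so 2 hosts each way is close to the share of all genes. The median log2 change was -0.22 for the 8 hosts and 0.01 for all tested genes.

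Snhg8 rose from 7.49, 6.35 and 6.56 CPM in KO FBS to 9.87, 11.1 and 11.9 CPM in KO paused cells. The groups were fully apart, with a log2 change of 0.69 ± 0.13 (adjusted p = 0.000861). The 50 tested genes nearest to Snhg8 had a median of 0.38, and scaled to them its change was 0.37 (adjusted p = 0.0372). Gas5 measured 170, 150 and 163 CPM in KO FBS and 187, 193 and 197 CPM in KO paused cells. Every paused library was above every KO FBS library, and the log2 change was 0.26 ± 0.08 (adjusted p = 0.0182). Leaving out single libraries gave Gas5 an adjusted p of up to 0.092, and the call was lost without KO FBS replicate 2, KO paused replicate 2 or KO paused replicate 3. Snhg6 stood at 16.8, 13.4 and 15.6 CPM before and 18.9, 18.7 and 19.3 CPM after pausing. Its libraries did not overlap either, but the log2 change of 0.32 ± 0.16 missed the threshold (adjusted p = 0.141). Scaled to its 50 neighbours, whose median was -0.21, Snhg6 rose by 0.50 (adjusted p = 0.0094).

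Snhg3 fell from 23.7, 20.7 and 24.2 CPM in KO FBS to 14.1, 13.0 and 12.5 CPM in KO paused cells. All paused libraries were lower, with a log2 change of -0.79 ± 0.21 (adjusted p = 0.0105). Snhg5 went from 36.3, 35.6 and 39.8 CPM to 26.7, 27.8 and 27.1 CPM. The groups were apart, and the log2 change was -0.45 ± 0.16 (adjusted p = 0.0373). That call for Snhg5 was lost without any one of the 6 KO libraries or WT paused replicate 1, with adjusted p reaching 0.116. It was also lost with no filter on low counts (-0.44, adjusted p = 0.051) and after scaling to its 50 neighbours (-0.26, adjusted p = 0.229). Snhg1 (61.9, 63.5 and 70.5 CPM before, 54.7, 56.4 and 59.5 CPM after), Snhg4 (27.7, 21.2 and 20 CPM before, 18.6, 19 and 17.7 CPM after) and Snhg12 (16.8, 16 and 16.7 CPM before, 13.6, 13.3 and 15 CPM after) were not called, with log2 changes of -0.20, -0.32 and -0.24 and adjusted p of 0.307, 0.294 and 0.0786 (DESeq2 called Snhg12, adjusted p = 0.0459). The fit shares its estimate of spread over all groups, so WT FBS replicate 1 bears on this comparison too, and without it all 8 hosts were called, 3 higher (Gas5, Snhg6 and Snhg8) and 5 lower, where 29.5% of genes were called higher, 30.4% lower and 59.9% in either direction. The trophoblast marker sum fell from 48.2 to 70.7 CPM in KO FBS to 6.06 to 6.35 CPM in KO paused cells, and its part in these changes was not tested.

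**Figure D2:**
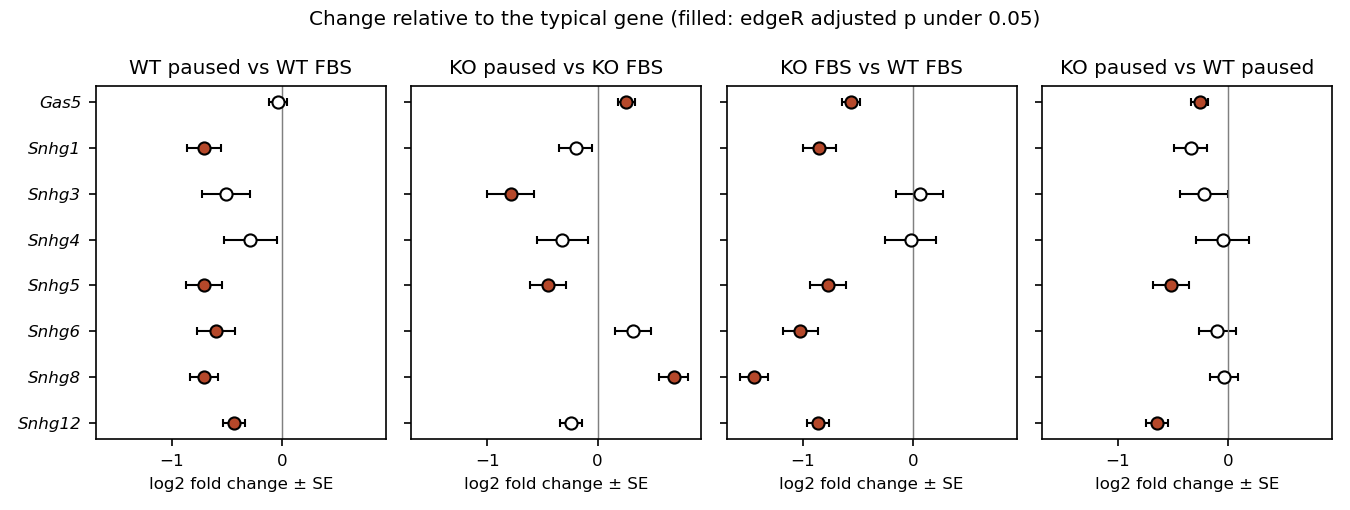
Log2 fold change of each host RNA relative to the typical gene in the 4 comparisons of 2 groups. Points are edgeR estimates, bars are ± 1 SE, and filled points have an adjusted p under 0.05. Gas5 sits at -0.04 in WT pausing and at -0.56 between genotypes in FBS, and Snhg8 at -0.71 in WT pausing and 0.69 in KO pausing.

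Without pausing, the knockout cells had lower levels of 6 of the 8 hosts than the wild type, and none was higher. The background of genes called lower was 28.8%, with 29.2% higher and 57.9% in either direction. The median log2 difference was -0.81 over the 8 hosts and -0.03 over all tested genes. Snhg8 showed the largest difference of the 8, at 16.8 to 19.6 CPM in WT FBS and 6.35 to 7.49 CPM in KO FBS cells. The KO libraries were 2.71-fold lower, a log2 difference of -1.44 ± 0.13 (adjusted p = 1.44e-06). Snhg6 was 2.03-fold lower (log2 -1.02 ± 0.16, adjusted p = 0.000206), with 13.4 to 16.8 CPM in KO FBS against 25.6 to 42.0 CPM.

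Snhg12 (log2 -0.86 ± 0.10, adjusted p = 1.58e-05), Snhg1 (-0.85 ± 0.15, adjusted p = 0.000435) and Snhg5 (-0.77 ± 0.16, adjusted p = 0.00127) were lower by similar amounts. For each of these 3 the highest KO FBS library lay below the lowest WT FBS library. Gas5 was 1.48-fold lower, with 150 to 170 CPM against 223 to 252 CPM (log2 -0.56 ± 0.08, adjusted p = 5.75e-05). Snhg3 and Snhg4 showed differences of 0.06 ± 0.21 (adjusted p = 0.821) and -0.02 ± 0.23 (adjusted p = 0.946), and their WT FBS and KO FBS libraries overlapped. Without WT FBS replicate 1 both were lower in KO FBS, at -0.22 ± 0.09 (adjusted p = 0.036) for Snhg3 and -0.31 ± 0.12 (adjusted p = 0.0359) for Snhg4, which makes all 8 lower, where 35.5% of genes were called lower and 69.0% in either direction. The other 6 kept their calls without that replicate, at -0.62 for Snhg1, -0.63 for Gas5, -0.79 for Snhg6, -0.96 for Snhg12, -0.97 for Snhg5 and -1.52 for Snhg8. Trophoblast markers are the highest in KO FBS cells, as given above, and their part in the difference was not tested.

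In paused cells the genotypes differed at fewer hosts. Snhg12, Snhg5 and Gas5 were lower in KO paused than in WT paused cells and none was higher, where 24.7% of tested genes were called lower, 27.7% higher and 52.3% in either direction. Snhg12 measured 13.3 to 15 CPM in KO paused and 21 to 22.9 CPM in WT paused cells, a log2 difference of -0.65 ± 0.10 (adjusted p = 0.00021). Snhg5 measured 26.7 to 27.8 CPM against 33.0 to 45.7 CPM, a log2 difference of -0.52 ± 0.16 (adjusted p = 0.0181). Gas5 measured 187 to 197 CPM against 221 to 240 CPM (log2 -0.26 ± 0.08, adjusted p = 0.0126). In all 3 the KO libraries lay below the WT libraries, but the Gas5 call was lost without KO paused replicate 1 or WT paused replicate 3, and the Snhg5 call without either of these or KO paused replicate 3.

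Snhg8 had 9.87 to 11.9 CPM in KO paused and 9.71 to 12.4 CPM in WT paused cells, a difference of -0.04 ± 0.13 (adjusted p = 0.809) with overlapping groups. Snhg6 (-0.10 ± 0.17, adjusted p = 0.642), Snhg1 (-0.34 ± 0.15, adjusted p = 0.079), Snhg3 (-0.22 ± 0.22, adjusted p = 0.421) and Snhg4 (-0.05 ± 0.24, adjusted p = 0.874) were not called either. Without WT FBS replicate 1, 5 hosts were called lower (32.0% of genes lower, 65.4% in either direction), Snhg1 at -0.34 and Snhg3 at -0.23 joining the first 3.

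The genes around some hosts also differed between the genotypes. The 50 tested genes nearest to Gas5 had a median log2 difference of -0.30 between KO FBS and WT FBS and of -0.42 between KO paused and WT paused cells. Scaled to those neighbours, Gas5 differed by -0.34 (adjusted p = 0.00437) in FBS and by 0.11 (adjusted p = 0.274) in paused cells, so its call in paused cells was lost and its sign turned. Snhg6, also on chromosome 1, had neighbours at -0.03 in FBS and -0.57 in paused cells, and scaled to them it differed by -1.03 (adjusted p = 3.42e-05) and 0.29 (adjusted p = 0.091). The neighbours of Snhg8 on chromosome 3 stood at 0.16 and 0.64, and on that scale Snhg8 was lower in KO cells in both conditions, at -1.62 (adjusted p = 7.43e-07) in FBS and -0.60 (adjusted p = 0.00209) in paused cells. Snhg12 and Snhg5 kept their differences in both conditions, from -0.69 to -1.18 after the same scaling.

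The response to pausing itself was compared between genotypes with an interaction contrast, and 2 hosts were called, both more positive in the knockout, where 8.83% of tested genes were more positive, 8.88% more negative and 17.7% called in all. Snhg8 changed by -0.71 in WT and 0.69 in KO cells, a difference of 1.40 ± 0.18 on the log2 scale (adjusted p = 0.000297). Snhg6 changed by -0.60 in WT and 0.32 in KO cells, a difference of 0.92 ± 0.23 (adjusted p = 0.0184), and that call was lost without KO FBS replicate 2 (adjusted p = 0.0521). Scaled to the ERCC spike-in, WT paused cells had the lowest mean for Snhg8 (30.1% of the WT FBS mean, 38.6% in KO FBS). The same held for Snhg6 (32.0%, and 51.1% in KO FBS). On the relative scale the KO FBS level is the lowest of the 4 groups for both RNAs, while their levels in WT paused and KO paused cells were not called different. Gas5 differed in its response by 0.30 ± 0.11 (adjusted p = 0.0789), and by 0.37 (adjusted p = 0.00331) without WT FBS replicate 1. DESeq2 called it too (0.29, adjusted p = 0.031), and scaled to its neighbours it was 0.45 (adjusted p = 0.023). Snhg1 (0.51 ± 0.21, adjusted p = 0.123), Snhg5 (0.25 ± 0.23, adjusted p = 0.486), Snhg12 (0.21 ± 0.14, adjusted p = 0.358), Snhg3 (-0.29 ± 0.31, adjusted p = 0.568) and Snhg4 (-0.03 ± 0.33, adjusted p = 0.965) were not called. Without WT FBS replicate 1 the count was 6, with Snhg8 at 1.47, Snhg6 at 0.69, Snhg5 at 0.44, Gas5 at 0.37, Snhg12 at 0.31 and Snhg1 at 0.27, and 24.2% of genes were called more positive and 41.6% in either direction.

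Scaled to the ERCC spike-in, every host fell per cell when wild-type cells were paused. This is a bulk measurement, in which fewer cells of a type and less RNA per cell cannot be told apart. All 8 were called lower, where 68.8% of tested genes were called lower, 1.15% higher and 69.9% in either direction. Gas5 kept the largest share, 35.7%, 55.3% and 50% of the WT FBS mean in WT paused replicates 1 to 3, a log2 change of -1.09 ± 0.32 (adjusted p = 0.00195) beside a median of -1.05 over all tested genes. Snhg5 kept the smallest mean share, with 21.8%, 31.0% and 35.8% (log2 -1.76 ± 0.33, adjusted p = 1.45e-06). The other 6 had mean shares between 29.9% for Snhg1 and 40.1% for Snhg4, and the median log2 change of the 8 was -1.60. All 8 were again called lower without WT FBS replicate 1, from -1.17 for Gas5 to -1.97 for Snhg5, where 62.8% of genes were lower and 64.4% called in either direction.

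In KO cells, 5 hosts fell per cell on pausing (Snhg1, Snhg3, Snhg4, Snhg5 and Snhg12), where 45.7% of tested genes were called lower, 2.45% higher and 48.2% in either direction. Snhg3 had the largest of these changes, from 77.2%, 137% and 117% of the WT FBS mean to 37.0%, 41.7% and 37.4% (log2 -1.51 ± 0.33, adjusted p = 6.58e-05). The call was lost for Snhg1 without KO FBS replicate 2, KO FBS replicate 3 or KO paused replicate 1, for Snhg12 without the first or the last of these, and for Snhg4 without KO paused replicate 1. limma on the deposited log2 values did not call Snhg1 (adjusted p = 0.0767) or Snhg12 (adjusted p = 0.0607). Gas5 measured 50.5%, 90.4% and 71.4% in KO FBS and 44.5%, 56.5% and 53.5% in KO paused cells, with overlapping groups and a log2 change of -0.46 ± 0.32 (adjusted p = 0.219). Snhg8 had a mean of 38.6% before and 38.2% after pausing, a log2 change of -0.01 ± 0.33 (adjusted p = 0.983).

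Between genotypes in FBS, Snhg8 (log2 -1.38 ± 0.34, adjusted p = 0.000364) and Snhg6 (-0.97 ± 0.33, adjusted p = 0.0147) were lower per cell in the knockout. The background was 9.81% of genes lower, 19.1% higher and 28.9% in either direction. The Snhg6 call was lost with only these groups in the fit (adjusted p = 0.0956), when KO FBS replicate 3 was left out (adjusted p = 0.062) and when WT FBS replicate 1 was (-0.75, adjusted p = 0.099). In that last case Snhg8 was at -1.48, and Snhg5 and Snhg12 were called, at -0.89 (adjusted p = 0.0367) and -0.90 (adjusted p = 0.0379), where 9.01% of genes were lower and 27.2% called in either direction. The count was 5 without KO FBS replicate 2 and 4 without WT paused replicate 1. With the replicate number as a block, 6 hosts were lower, Gas5 (-0.53, adjusted p = 0.0379), Snhg1, Snhg5 and Snhg12 joining these. Between KO paused and WT paused cells edgeR called 0 of the 8 hosts per cell, where 5.62% of genes were called lower, 27.1% higher and 32.8% in either direction. At an unadjusted p under 0.05 the count was 0 too, and limma on the deposited log2 values called 0. The response to pausing differed per cell for Snhg8, at 1.73 ± 0.48 (adjusted p = 0.0116), where 3.04% of genes were more positive, 1.66% more negative and 4.7% called in all. That call was lost when any of KO paused replicates 2 and 3, KO FBS replicate 3, WT FBS replicates 2 and 3 or WT paused replicate 1 was left out (adjusted p up to 0.0693), and with the replicate block Snhg6 (adjusted p = 0.00331) and Snhg1 (adjusted p = 0.0468) were called as well.

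**Figure D3:**
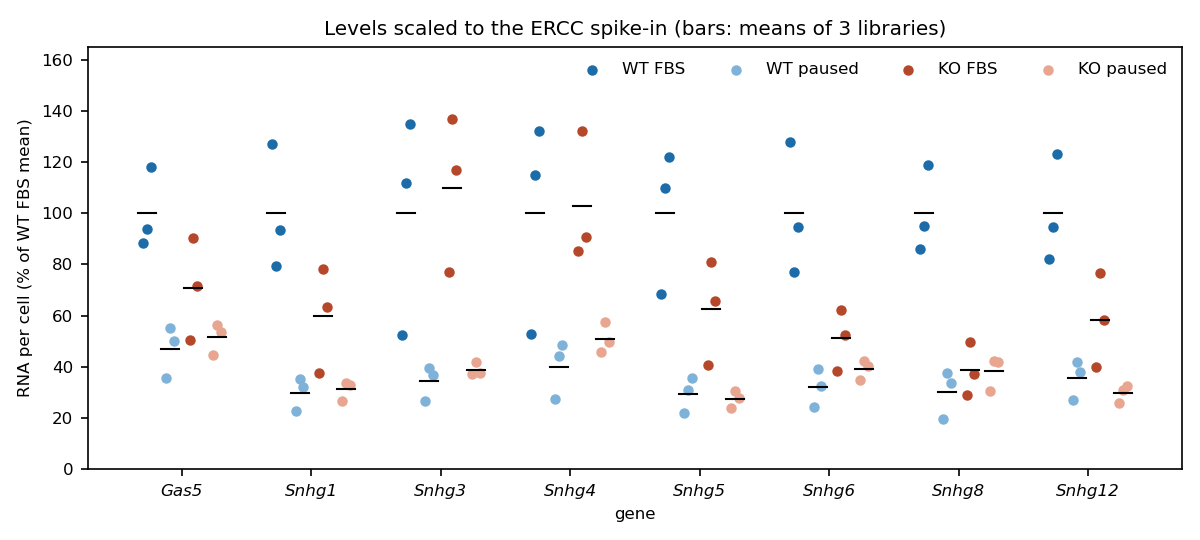
RNA per cell of each host, as a percentage of its WT FBS mean after scaling to the ERCC spike-in. Points are single libraries and bars are means of 3. In WT paused cells Gas5 has a mean of 47.0% and Snhg5 of 29.5%, and Snhg8 stands at 38.6% in KO FBS and 38.2% in KO paused libraries.

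The levels of the 8 RNAs followed each other unevenly over the 12 samples. These are correlations of log2 CPM over samples that share groups and library scaling, given as a description. Gas5 was closest to Snhg8 (Pearson r = 0.87) and Snhg12 (0.77) and showed no such likeness to Snhg3 (-0.11) or Snhg4 (0.02). Snhg5 and Snhg12 had r = 0.91, Snhg1 and Snhg6 0.88, and Snhg3 and Snhg4 0.83. The last 2 pairs also share the departure of WT FBS replicate 1, which was high for Snhg1 and Snhg6 and low for Snhg3 and Snhg4. Among all other tested genes the 5 most like Gas5 over the 12 samples were Clasp1 (r = 0.98), a microtubule plus-end protein gene on the same chromosome, Gsg2 (0.977), the haspin kinase gene, and Enkd1 (0.972), Cryzl1 (0.969) and Dapp1 (0.966). Clasp1 measured 137, 145 and 158 CPM in WT FBS, 148, 141 and 148 in WT paused, 95.8, 91.6 and 86.9 in KO FBS and 116, 116 and 120 in KO paused libraries. Its order of groups is that of Gas5.

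Several hosts share sequence with a protein-coding neighbour. No source used here gives the strand setting of the counting, and a strand setting cannot separate genes on the same strand. Reads in the shared part may therefore be counted for either gene or left out. Snhg3 overlaps Rcc1, the gene of a chromatin-bound exchange factor for Ran, by 5592 bases on the same strand. Rcc1 fell with pausing in WT (log2 -0.98 ± 0.21, adjusted p = 0.00327) and in KO cells (-0.54 ± 0.20, adjusted p = 0.0487), and in WT FBS replicates 1 to 3 it had 95.9, 197 and 202 CPM, low in replicate 1 as Snhg3 was. Leaving that library out gave Rcc1 -1.28 in WT pausing. Snhg4 overlaps Gm28285, annotated as protein-coding, by 4913 bases on the same strand, and Gm28285 has no row of that name in the counts. Gas5 overlaps the start of Zbtb37 by 428 bases on the opposite strand. Zbtb37, a zinc finger gene, rose in WT paused cells (0.45 ± 0.14, adjusted p = 0.023) and was not called in the other comparisons on this scale with all libraries. Slc3a2, the heavy chain of an amino acid transporter, starts 106 bases from Snhg1 on the opposite strand with no overlap. It was lower in WT paused cells (-0.39 ± 0.14, adjusted p = 0.0404) and in KO FBS cells (-0.36 ± 0.14, adjusted p = 0.0395), the comparisons in which Snhg1 was lower. These were -0.56 and -0.52 with WT FBS replicate 1 left out, and Zbtb37 in WT paused cells was 0.46. Mcmdc2 overlaps the end of Snhg6 by 127 bases and was not called with all libraries in the fit, but without that replicate it was higher in WT paused than in WT FBS cells (0.87, adjusted p = 0.00719) and lower in KO paused than in WT paused cells (-0.58, adjusted p = 0.0279).

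Reads on snoRNA rows were few. Mature snoRNAs lack a poly(A) tail, and these libraries select for one. Whether such reads come from snoRNAs, from introns not yet spliced or from exons that contain the snoRNA was not tested. Of the snoRNAs inside these hosts, 9 had a row under a Snord or Snora name, and Snora24 in Snhg8 had 0 counts in all libraries. Snord47 in Gas5 had 24, 261 and 174 counts in WT FBS, 83, 89 and 100 in WT paused, 64, 79 and 86 in KO FBS and 66, 58 and 92 in KO paused libraries. Set against 100 counts of Gas5 this was 2.17 ± 1.02 in WT FBS, 3.05 ± 1.02 in WT paused, 1.73 ± 0.131 in KO FBS and 1.51 ± 0.189 in KO paused libraries, with overlapping WT and KO libraries in FBS and none in paused cells. In the fit, Snord47 was lower in KO than in WT cells in FBS (log2 -0.99 ± 0.32, adjusted p = 0.0183) and when paused (-1.24 ± 0.33, adjusted p = 0.00713). The FBS difference was -1.30 without WT FBS replicate 1.

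Snord22, inside Snhg1, had 4.98, 12.7 and 12 counts per 100 Snhg1 counts in WT FBS and 17.3, 15.6 and 15.3 in WT paused cells, so the Snhg1 row fell while the Snord22 row did not pass the test (0.08 ± 0.19, adjusted p = 0.78). It was lower in KO paused than in WT paused cells (-0.63 ± 0.19, adjusted p = 0.0159). Snord87, inside Snhg6, was lower in KO FBS than in WT FBS cells (-1.0 ± 0.31, adjusted p = 0.0136), beside -1.02 for Snhg6. Snora61 in Snhg12 fell on pausing in KO cells (-0.68 ± 0.26, adjusted p = 0.0479), and Snora16a, Snora44 and Snord99 of Snhg12 and Snora74a of Snhg4 were not called in any comparison of 2 groups on the relative scale with all libraries. When WT FBS replicate 1 was left out, Snord87 was at -1.19 in FBS, and Snora16a (-0.91), Snora44 (-1.33), Snord99 (-0.72) and Snora74a (-0.90) were called lower in KO FBS. Among all 94 tested rows of snoRNA and scaRNA genes, 31 were lower and 1 higher in KO FBS than in WT FBS cells (median -0.57). Of all tested genes, 28.8% were lower and 29.2% higher in that comparison. In KO paused against WT paused cells 29 of these rows were lower and 2 higher (median -0.64), beside 24.7% and 27.7% of all tested genes. Pausing of WT cells gave 3 lower and 1 higher of these rows, with a median of -0.10, beside 20.1% and 18.5% of all tested genes. Leaving out WT FBS replicate 1 raised the counts of lower rows to 52, 43 and 11 of 96. The shares of all tested genes called lower in those fits were 35.5%, 32.0% and 31.3%.

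**Figure D4:**
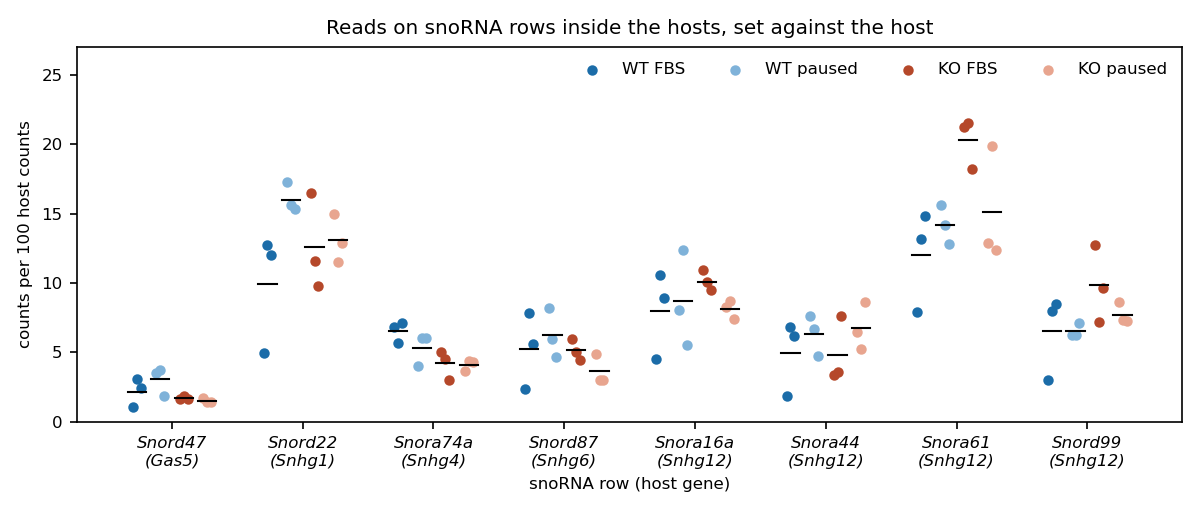
Counts on 8 snoRNA rows per 100 counts of the host gene in parentheses. Points are single libraries and bars are means of 3. Snord47 has the lowest mean ratios, with libraries from 1.05 to 3.76, and WT FBS replicate 1 is the lowest WT FBS library for all rows but Snora74a.

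Other snoRNA hosts did not all move as these 8 did. The gene lists that follow were drawn up from general knowledge with earlier results of these data known. Of 15 other non-coding hosts, 4 rose and 4 fell in WT paused cells, with a median of 0.00. Epb4.1l4aos (-0.74 ± 0.14, adjusted p = 0.00144) and Snhg11 (-0.99 ± 0.13, adjusted p = 0.000175) fell, and the imprinted RNAs Meg3 (1.28 ± 0.16, adjusted p = 0.000117) and Rian (1.07 ± 0.19, adjusted p = 0.00108) rose. Meg3 is counted among the 15 but was also listed with other long non-coding RNAs, and its place as a host was not tested. In KO FBS cells 8 of the 15 were lower and 1 (Snhg18, 1.35 ± 0.40, adjusted p = 0.0112) was higher than in WT FBS cells, with a median of -0.40. Snhg18 levels were very low, at 0.0975, 0.529 and 0.246 CPM in WT FBS and 0.871, 0.892 and 0.919 CPM in KO FBS libraries. Epb4.1l4aos, like Snhg6 and Snhg8, was lower in KO FBS (-0.95 ± 0.13, adjusted p = 6.42e-05), was not called between the paused genotypes (-0.03 ± 0.14, adjusted p = 0.858) and differed in its response to pausing (0.92 ± 0.19, adjusted p = 0.00653). The same held for 1500012F01Rik, also known as Zfas1, at -1.07 in FBS, 0.25 in paused cells and 1.32 ± 0.35 for the difference in response (adjusted p = 0.0225). Its WT FBS replicates 1 to 3 had 99.3, 44.9 and 46.3 CPM. With replicate 1 left out these differences were -0.63, 0.24 (then called, adjusted p = 0.0312) and 0.86, all 3 past the threshold. For Epb4.1l4aos they were -0.91 in FBS and 0.86 for the difference in response. Of the 15 hosts, 4 rose and 5 fell in WT pausing without that library, with a median of -0.05, and 2 were higher and 9 lower in KO FBS.

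Of 31 protein-coding hosts, most of them ribosomal protein and translation factor genes, 10 fell and 1 (Eef2) rose in WT paused cells, with a median of -0.13. Rpl7a (-0.61 ± 0.14, adjusted p = 0.00493), Rps2 (-0.48 ± 0.11, adjusted p = 0.0047) and Ncl (-0.46 ± 0.14, adjusted p = 0.0196) were among those that fell. In KO FBS cells 20 were lower and 1 (Rpl23) higher, with a median of -0.46, and in KO paused cells 14 were lower and none higher than in WT paused cells, with a median of -0.28. Without WT FBS replicate 1 the counts of lower genes were 22 in WT pausing, 28 between genotypes in FBS and 20 in paused cells, and Rpl23 was at 0.17 in place of 0.30.

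The proteins that act on these RNAs were counted in the same way. Of 14 nonsense-mediated decay factors, 3 fell and none rose in WT paused cells, namely Upf2 (-0.30 ± 0.08, adjusted p = 0.0119) and the exon junction complex genes Magoh (-0.55 ± 0.17, adjusted p = 0.021) and Eif4a3 (-0.48 ± 0.15, adjusted p = 0.0277). In KO FBS cells 7 were lower and 2 higher, with Upf3a, a decay factor that binds the exon junction complex, at -1.08 ± 0.11 (adjusted p = 6.34e-06) and Smg8, a regulator of the Upf1 kinase, at 1.41 ± 0.14 (adjusted p = 3.31e-06). Without WT FBS replicate 1 these counts were 6 lower and 3 higher in WT pausing and 9 lower and 3 higher between genotypes in FBS. Of 7 coding targets of this decay, 3 fell and 1 rose in WT paused cells. Atf4, a stress-response transcription factor, fell (-0.89 ± 0.15, adjusted p = 0.000738), and Gadd45a, a growth-arrest gene, rose (0.57 ± 0.15, adjusted p = 0.0113). The median of the 7 was -0.81, but -0.13 without WT FBS replicate 1, when 3 were lower, 2 higher and Gadd45a at 0.36.

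Of 8 core snoRNP proteins, 5 fell and none rose in WT paused cells, with a median of -0.41. Among them were Nhp2 (-0.84 ± 0.19, adjusted p = 0.00479), Nop10 (-0.85 ± 0.21, adjusted p = 0.00871) and Gar1 (-0.36 ± 0.09, adjusted p = 0.00664), parts of the H/ACA particle. Of 10 snoRNP assembly factors, 8 fell and none rose, with a median of -0.43, among them Naf1 (-0.64 ± 0.14, adjusted p = 0.00451), a chaperone of H/ACA particles, and Nufip1 (-0.39 ± 0.08, adjusted p = 0.00241), which acts in C/D assembly. With the first WT FBS library left out, 7 of the 8 proteins (median -0.56) and 9 of the 10 assembly factors (median -0.60) fell. Between genotypes in FBS, 2 of the 8 proteins were lower, a count that was 8 with that library left out, and 7 of the 10 assembly factors were lower and 1 (Znhit3, 0.77) higher. Without that library 8 of the 10 were lower and Znhit3 was at 0.50. Nop56, Nop58 and Dkc1 stand both among the core proteins and among the protein-coding hosts. The background shares for all these lists are those given for each comparison above.

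**Figure D5:**
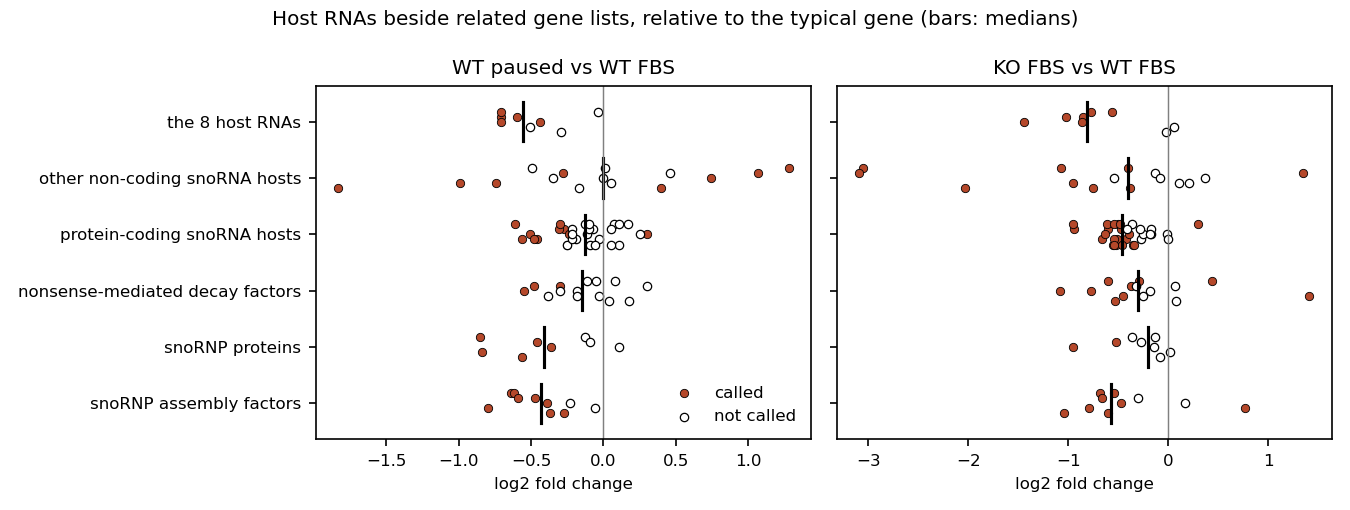
Log2 fold change of the 8 host RNAs and of 5 related gene lists, relative to the typical gene, in WT pausing (left) and between genotypes in FBS (right). Each point is a gene, filled where the edgeR adjusted p is under 0.05, and bars are medians, which for the 8 hosts are -0.55 and -0.81. Axes of the panels differ in range.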

How the data were processed

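The authors deposited raw counts of reads per gene (24421 rows plus 92 ERCC rows), and log2 values equal to log2 of the count plus 0.5 plus a constant per sample (3390 genes compared, largest SD 6.59e-10). Trim Galore 0.4.0, Subread 1.5.0, featureCounts, edgeR 3.32.1 and mm10 appear in the submitters' processing notes. No source used here gives the aligner, annotation or strand setting. ERCC RNA was added to the extracted RNA of 200000 cells per sample, per the labels' protocols, so earlier losses are not corrected.

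Tests used edgeR 4.0.16 (R 4.3.3) on the deposited counts, by robust quasi-likelihood over 4 group means, with the default filter (minimum count 10, total 15) and Benjamini-Hochberg adjustment over the 15281 genes kept (threshold 0.05). Libraries were sized by gene total and TMM factor (relative scale) or by ERCC total and TMM factor over the ERCC rows (per-cell scale, whose error all genes of a library share). Levels carry SD (n = 3) and log2 changes SE. The steps were tested on simulated data.

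In each comparison of 2 groups all 3 same-numbered pairs deviated together (r over 0.1), the only evidence of pairing beyond the numbers in the labels. Over all 18 such pairs r ran from -0.04 to 0.40, and over pairs of different number from -0.38 to 0.26, so the ranges overlap. Of the 12 samples, 10 correlated best with a sample of their own number. WT FBS replicate 2 was closer to KO FBS replicate 3 (0.26) than to KO FBS replicate 2 (0.12).

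Members and lists were chosen with earlier results of these data known. Named genes were the 8 hosts, Mettl3, overlapping or head-to-head neighbours, the 5 genes most correlated with Gas5, snoRNA rows inside hosts and, per list, up to 4 genes with the lowest p in WT pausing plus called genes that moved against it. Only some of these are printed. Alternatives were other scalings and filters, DESeq2 1.42.0, limma 3.58.1, the replicate block, scaling to 50 neighbours and leaving out each library.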

Additional observations from a re-analysis of the deposited data

Results flagged for a closer look

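The response to pausing differed between the genotypes by the interaction contrast for 2 of the 8 host RNAs. For Snhg8 the difference of the log2 changes (KO minus WT) was 1.40 relative to the typical gene (adjusted p = 0.000297) and 1.73 per cell (adjusted p = 0.0116). For Snhg6 it was 0.92 relative to the typical gene (adjusted p = 0.0184), and 1.26 per cell was not called (adjusted p = 0.0991).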

How the results depend on the processing

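Over 1384 values of single hosts under the alternatives, 1274 kept their direction and their side of the threshold, 38 gained a call, 37 lost one and 35 changed sign. The number of the 8 hosts called moved by more than 1.5 times as follows. With only the groups compared in the fit, KO pausing gave 8 (relative) and KO FBS against WT FBS gave 1 (per cell). limma on the deposited log2 values gave 3 for KO pausing per cell. The replicate block gave 6 for KO FBS against WT FBS and 3 for the difference in response, both per cell, and changed no other call of a host on either scale. Leaving out single libraries gave counts, relative, of 5 to 7 in WT pausing, 2 to 8 in KO pausing, 6 to 8 between genotypes in FBS, 1 to 5 in paused cells and 1 to 6 for the difference in response. Per cell they were 8 to 8, 2 to 6, 1 to 5, 0 to 0 and 0 to 2.

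Signs turned for these hosts, none of them past the threshold after the change of sign where all libraries were used. Scaling to 50 neighbours gave Gas5 0.11 and Snhg6 0.29 between paused genotypes and Snhg4 0.09 in FBS. Snhg4 in FBS was 0.01 with the replicate block and 0.00 with DESeq2, and 0.00 for the difference in response with no filter. Snhg8 in KO pausing per cell was 0.00 with the replicate block and 0.10 with limma. Leaving out libraries moved it from -0.18 to 0.21. Between genotypes in FBS it moved Snhg3 from -0.22 to 0.20 and Snhg4 from -0.31 to 0.14 (relative), and Snhg3 from -0.17 to 0.40 and Snhg4 from -0.27 to 0.28 (per cell). Between paused genotypes it moved Snhg4 from -0.13 to 0.11 and Snhg8 from -0.14 to 0.05 (relative), and Gas5 from -0.03 to 0.25, Snhg1 from -0.11 to 0.17 and Snhg5 from -0.29 to 0.06 (per cell). For the difference in response, Snhg4 moved from -0.20 to 0.23 (relative) and Snhg3 from -0.23 to 0.34 (per cell). The cause of these shifts was not tested. Snord22 in WT pausing went from 0.08 to -0.12 without WT FBS replicate 1, a setting applied to genes other than the 8 hosts after seeing the data. The lowest host counts were 99 for Snhg8 and 124 for Snhg3 in single libraries.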
